A study of Mus musculus with 3 samples.

Results

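The genes described here are 10 mouse genes that the RAS-ERK signalling cascade is known to switch on. They are the EGR transcription factor genes Egr1, Egr2 and Egr3, the immediate-early genes Ier3 and Phlda1, the phosphatase genes Dusp4, Dusp5 and Dusp6, and the Sprouty genes Spry2 and Spry4. They were found by matching the transcript accession of every non-control probe to these genes, which gave 10 probes, 1 for each gene, of 39429 probes on the array. Of the 20637 genes that could be named and read on all 3 arrays, they are 10. The 3 samples are mouse cells labelled as embryonic stem cells: gp130 KO cells, LIFR KO cells and wildtype cells, with 1 single-colour Agilent array for each. All were grown in what the labels call standard conditions, with no treatment named. The sources used here give neither the strain, nor how each knockout was made, nor whether a line is 1 clone, nor whether the medium held LIF or serum.

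LIFR is the receptor subunit that binds the cytokine LIF, and gp130, encoded by Il6st, is the subunit it signals with. Besides the JAK-STAT3 pathway, the pair is known to feed the RAS-RAF-MEK-ERK cascade through the phosphatase SHP2. Active ERK induces immediate-early genes within minutes through transcription factors bound to serum response elements, and then a second layer of genes whose products switch the cascade off again. In mouse embryonic stem cells, ERK activity driven by FGF4 is known to push cells toward differentiation, while LIF holds them in the pluripotent state.

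With 1 array for each genotype there was no test, and every difference below is a difference between 2 arrays. The scanner software's own error of each spot was about 10% of a bright signal, which is 0.20 on the log2 scale for a ratio of 2 spots. The scatter of repeated spots on an array gives such a ratio a 95% half-width of 0.14 to 0.15. Neither error holds the spread between cultures, and the number of arrays limits the precision. The labels could be checked only in part. The Lifr probe with measurable signal gave 34.7 ± 3.99, 29.97 ± 4.62 and 34.9 ± 4.13 on the gp130 KO, LIFR KO and wildtype arrays, and the Il6st probe 299 ± 30.04, 369 ± 37.2 and 329 ± 33.0. Each signal was lowest on the array of its own knockout but close to that of wildtype. The positions of these probes and of the deletions are not known here, so these values do not check the labels. Of 12 markers of embryonic stem cells, Sox2, Zfp42, Dppa3, Fgf4 and Nr0b1, which are 5, were detected on no array, and the other 7 on each of the 3 arrays, with the pluripotency factor gene Pou5f1 at signals of 20.3, 22.7 and 31.2. All 7 epithelial markers were detected on each array. Of the fibroblast and feeder markers, Col1a1 and Col1a2 were so on all 3, Col3a1 and Thy1 on 2, and Pdgfrb and Twist2 on none. Of the blood cell markers, Ptprc and Csf1r were so on all 3 and Lyz2 and Spi1 on none, and of the endothelial markers Kdr and Pecam1 on all 3 and Cdh5 and Tek on none. Detected here means well above background. The marker sums that follow are of signal not scaled between arrays. The 75th percentiles on the gp130 KO, LIFR KO and wildtype arrays were 654, 749.6 and 666, so sums of different arrays compare only roughly. In this order of arrays, the sum was 64171, 76784 and 60607 for the 7 epithelial markers. It was 2437, 2408 and 2407 for the 12 stem cell markers. For the 6 fibroblast and feeder markers the sum was 169, 313 and 132. Most of it was Col1a1, at 92.9, 257 and 70.4 in the same order. Col1a2 gave 27.8, 24.8 and 22.8. Col3a1 (21.0, 8.59 and 13.8) and Thy1 (23.7, 15.7 and 20.4) were lowest on the LIFR KO array. For the 4 blood cell markers the sum was 254, 243 and 265, and for the 4 endothelial markers 1234, 1151 and 1352. The part of cell makeup in the differences below was not tested, and in bulk RNA fewer cells of a type and less RNA for each cell cannot be told apart.

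The start regions of 3 of the genes are shown first, because the serum response element is the known ERK-responsive part of immediate-early promoters. Windows of 5 of the 10 genes were read from the RefSeq table of GRCm38.p6. Each ran from 250 bases before to 50 bases after an annotated start. The genes were Egr2 with 5 windows and Dusp5, Dusp6, Ier3 and Spry2 with 1 each. No window was read for the other genes of the list. Nothing is therefore said here of their start regions, or of whether their starts are annotated. The motifs searched on both strands were the CArG box, which is the core of the serum response element, the EGR site GCGNGGGCG, the CRE TGACGTCA, the AP-1 site TGANTCA, the STAT site TTCNNNGAA, the ETS site CCGGAAG and the NF-kB site (GGG, any pair of bases, then TTTCC). Egr2 and Dusp5 are shown because their windows held matches, and Ier3 as a gene whose window held none. Capitals mark the matched motifs.
Egr2, chr10:67537619-67537918, plus strand: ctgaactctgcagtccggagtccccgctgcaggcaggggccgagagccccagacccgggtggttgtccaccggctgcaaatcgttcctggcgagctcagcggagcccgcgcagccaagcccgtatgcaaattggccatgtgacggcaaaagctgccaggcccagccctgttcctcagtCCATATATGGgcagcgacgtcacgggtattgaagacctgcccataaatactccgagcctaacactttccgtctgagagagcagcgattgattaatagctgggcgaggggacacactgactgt
Dusp5, chr19:53528895-53529194, plus strand: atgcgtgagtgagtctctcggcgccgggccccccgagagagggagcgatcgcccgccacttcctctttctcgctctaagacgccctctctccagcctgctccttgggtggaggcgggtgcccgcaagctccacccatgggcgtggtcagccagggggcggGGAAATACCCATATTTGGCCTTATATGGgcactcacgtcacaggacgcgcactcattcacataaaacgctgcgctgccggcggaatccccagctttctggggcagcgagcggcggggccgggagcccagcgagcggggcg
Ier3, chr17:35821463-35821762, plus strand: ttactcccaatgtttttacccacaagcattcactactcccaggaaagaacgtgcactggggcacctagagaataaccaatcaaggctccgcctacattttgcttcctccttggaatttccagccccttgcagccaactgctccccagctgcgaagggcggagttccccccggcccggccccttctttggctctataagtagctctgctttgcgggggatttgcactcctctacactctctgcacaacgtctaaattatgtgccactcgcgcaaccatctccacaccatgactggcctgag

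The Egr2 window held 1 CArG box, CCATATATGG, at positions -72 to -63 from the annotated start. A CArG box was found in 4 of the 5 Egr2 windows, 3 of which overlap and share this match, while the other one held CCTTTTTTGG. The Dusp5 window held a pair of CArG boxes side by side, CCATATTTGG at -82 to -73 and CCTTATATGG at -72 to -63. An NF-kB match, GGAAATACCC at -90 to -81, overlaps the first of these, so that the capitals form 1 run. A CArG box was present in 1.63% of 32841 windows of the whole table, and the NF-kB motif in 1.63% as well. The other shares were 5.55% for the EGR site, 1.79% for the CRE, 7.81% for the AP-1 site, 8.30% for the STAT site and 8.86% for the ETS site. None of these 5 motifs was found in the windows read for the 5 genes. Ier3, Dusp6 and Spry2 held no match of any of the 7 motifs, which says only that these letters are not in these windows.

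Of the 10 genes, 8 had a probe well above background on at least 1 array. The probes of Egr3 and Spry2 were at or near background on every array, so nothing can be said of these genes. Egr3, an EGR factor of muscle spindle and immune cell development, gave signals of 2.21, 3.72 and 3.14 on the gp130 KO, LIFR KO and wildtype arrays. Spry2, an inhibitor of the cascade upstream of RAF, gave 9.17, 11.5 and 9.49. The lowest signals that counted as well above background were 9.66, 16.7 and 10.5 on the gp130 KO, LIFR KO and wildtype arrays. None of the spots of the 10 genes was an outlier or saturated, and none lay in the stray signal that covered part of the LIFR KO array. Their local background was 18 to 23 on the gp130 KO array, 19 to 37 on the LIFR KO array and 20.5 to 27 on the wildtype array.

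**Figure D1:**
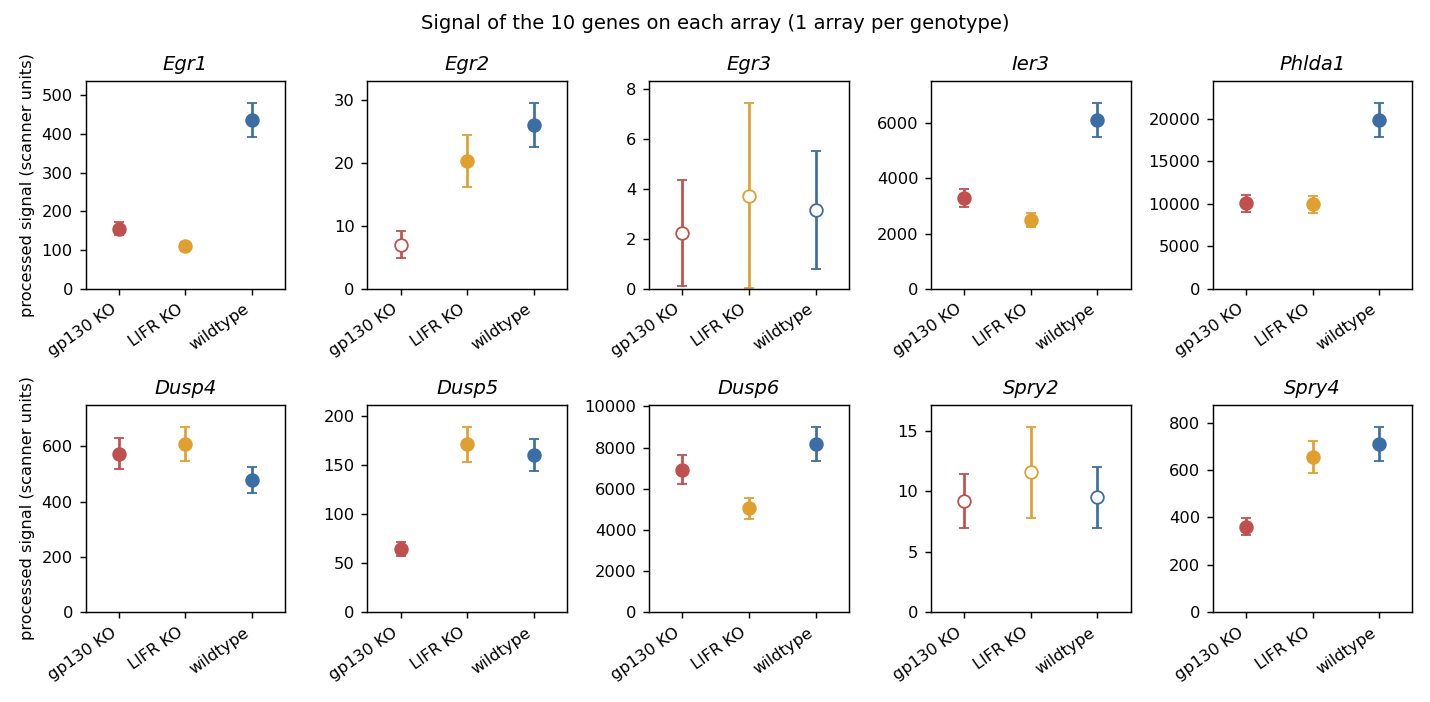
Processed signal in scanner units of the probe of each of the 10 genes, 1 panel per gene with its own vertical axis from 0, on the gp130 KO, LIFR KO and wildtype arrays, 1 point for each array. Bars are the scanner software's error and open points were not well above background. Egr1, Ier3 and Phlda1 lie lower on both knockout arrays, Dusp5 and Spry4 lie lowest on the gp130 KO array and Dusp6 on the LIFR KO array.

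Egr1, the zinc finger factor also known as Zif268 and Krox24 and a standard readout of ERK activity, had the largest measured difference from wildtype on both knockout arrays, the bound for Egr2 left aside. Its probe for NM_007913 gave a signal of 156 ± 15.7 on the gp130 KO array, 109 ± 11.5 on the LIFR KO array and 436 ± 43.7 on the wildtype array (scanner error). The wildtype signal was far above both knockout signals, and the LIFR KO signal was the lowest. After scaling each array by its 75th percentile, Egr1 was 2.75-fold lower on the gp130 KO array than on wildtype, a log2 ratio of -1.46 with a scanner error of 0.20. It was 4.48-fold lower on the LIFR KO array than on wildtype, a log2 ratio of -2.16 with a scanner error of 0.21. Counted from the lowest ratio, over the genes detected on both arrays, Egr1 ranked 27 of 14082 for gp130 KO over wildtype and 9 of 13139 for LIFR KO over wildtype. Between the knockouts, Egr1 was 1.63-fold higher on the gp130 KO than on the LIFR KO array, a log2 ratio of 0.70 with a scanner error of 0.21.

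The size of the Egr1 difference on the LIFR KO array, though not its direction, changed with normexp, a background correction that here adds an offset of 50. With normexp fitted to all spots the log2 ratio of Egr1 over wildtype was -0.63, and -1.67 when the stray signal was left out of that fit. Normexp on all spots turned gp130 KO over LIFR KO to -0.62. That setting put 3305 genes at least 2-fold higher on the LIFR KO than on the wildtype array, against 113 with the stray signal left out of the fit.

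Egr2, also called Krox20 and known for its part in hindbrain and Schwann cell development, was close to background. Its probe gave 6.96 on the gp130 KO array, where it was not well above background, 20.3 ± 4.10 on the LIFR KO array and 26.0 ± 3.47 on the wildtype array. It was therefore at least 2.64-fold lower on the gp130 KO array than on wildtype and at least 1.83-fold lower than on the LIFR KO array. Both are lower bounds, taken against the lowest signal well above background on the gp130 KO array. The LIFR KO array differed from wildtype by a log2 ratio of -0.53 with a scanner error of 0.35. With normexp on all spots the log2 ratio of LIFR KO over wildtype turned to 1.68. That of gp130 KO over LIFR KO was -2.10 with normexp on all spots and -0.16 with normexp without the stray signal. The same 2 fits gave -0.41 and -0.42 for gp130 KO over wildtype, inside 2-fold. The added offset of 50 by itself shrinks ratios of signals this dim. These fits therefore cannot tell whether the call depends on how background is subtracted.

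The EGR family's remaining gene and its partners were examined alongside. Egr4 was not well above background on any array. Nab1, a corepressor that binds EGR factors, gave signals of 2438, 2698 and 3087 on the gp130 KO, LIFR KO and wildtype arrays. Nab2, the other corepressor and itself known to be induced by EGR factors, gave 1575, 2761 and 1799. Neither passed 2-fold in any comparison: the log2 ratios over wildtype were -0.31 (gp130 KO) and -0.36 (LIFR KO) for Nab1, and -0.17 (gp130 KO) and 0.45 (LIFR KO) for Nab2.

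Ier3 and Phlda1, both immediate-early genes of small proteins linked to cell survival, were lower on both knockout arrays. Ier3, also called IEX-1, is known as an ERK substrate that limits ERK dephosphorylation. Its probe for NM_133662 gave 3275 ± 328 on the gp130 KO array, 2500 ± 250 on the LIFR KO array and 6117 ± 612 on the wildtype array. Both knockout signals lay well under wildtype, the LIFR KO signal being the lower. Ier3 was 1.83-fold lower on the gp130 KO array, with a log2 ratio of -0.88, and 2.75-fold lower on the LIFR KO array, with a log2 ratio of -1.46, each with a scanner error of 0.20. Between the knockouts it was higher on the gp130 KO array by a log2 ratio of 0.59, with the same error.

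Phlda1, a pleckstrin homology-like protein also called TDAG51, gave 10056 ± 1006 on the gp130 KO array, 9952 ± 995 on the LIFR KO array and 19858 ± 1986 on the wildtype array. It was 1.94-fold lower than wildtype on the gp130 KO array and 2.25-fold lower on the LIFR KO array, with log2 ratios of -0.96 and -1.17. The 2 knockout arrays differed from each other by a log2 ratio of 0.21 with a scanner error of 0.20. Both values over wildtype lie beside the 2-fold threshold. For gp130 KO over wildtype the log2 ratio was -1.01 with quantile normalization, and for LIFR KO over wildtype -0.996 when arrays were scaled by their median. Of all pairs of the 7 members that were well above background on all 3 arrays, Ier3 and Phlda1 had the most alike pair of log2 ratios over wildtype, 0.31 apart as a distance over 3 arrays. Distances between pairs of other genes are not given here, so how unusual this one is cannot be said.

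The 3 phosphatases of the list did not move alike. These enzymes remove the activating phosphates from ERK, with DUSP4 and DUSP5 in the nucleus and DUSP6 in the cytoplasm. Dusp5 gave 64.4 ± 6.99 on the gp130 KO array, 171 ± 17.7 on the LIFR KO array and 160 ± 16.2 on the wildtype array. Only the gp130 KO signal stood apart. Dusp5 was 2.44-fold lower on the gp130 KO array than on wildtype, a log2 ratio of -1.28 with a scanner error of 0.21, and ranked 37 of 14082 genes from the lowest. On the LIFR KO array the log2 ratio was -0.07 with a scanner error of 0.21, and 0.10 with arrays scaled by their median, so no direction can be given. Directly compared, Dusp5 was 2.31-fold lower on the gp130 KO than on the LIFR KO array, a log2 ratio of -1.21 with a scanner error of 0.22. With normexp this log2 ratio was -1.57 on all spots and -0.61 without the stray signal, and that of gp130 KO over wildtype was -0.67 in both.

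Dusp6, the phosphatase of a well known feedback loop on ERK, gave 6930 ± 693 on the gp130 KO array, 5060 ± 506 on the LIFR KO array and 8186 ± 819 on the wildtype array. The order of the arrays differed from that of Dusp5, with the LIFR KO array the lowest. Dusp6 was 1.82-fold lower on the LIFR KO array than on wildtype, a log2 ratio of -0.86 with a scanner error of 0.20. The gp130 KO array differed from wildtype by a log2 ratio of -0.21 with the same error. Between the knockouts Dusp6 was 1.57-fold higher on the gp130 KO array, a log2 ratio of 0.65, and with normexp on all spots 1.07.

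Dusp4 was the measured member that lay higher than wildtype on both knockout arrays. It gave 574 ± 57.4 on the gp130 KO array, 609 ± 61.0 on the LIFR KO array and 479 ± 47.9 on the wildtype array. The log2 ratios over wildtype were 0.29 for gp130 KO and 0.18 for LIFR KO, each with a scanner error of 0.20. Both lie well inside 2-fold, and the 3 signals lie close together.

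Spry4, a Sprouty protein that blocks receptor tyrosine kinase signals on their way to RAF, was, like Dusp5, lowest on the gp130 KO array. It gave 361 ± 36.1 on the gp130 KO array, 655 ± 65.6 on the LIFR KO array and 711 ± 71.1 on the wildtype array. The gp130 KO signal was apart from the other two, which differed little. Spry4 was 1.94-fold lower on the gp130 KO array than on wildtype, a log2 ratio of -0.95 with a scanner error of 0.20, and ranked 77 of 14082 genes from the lowest. For LIFR KO over wildtype the log2 ratio was -0.29. Between the knockouts it was 1.58-fold lower on the gp130 KO array, with a log2 ratio of -0.66. The pair of log2 ratios over wildtype of Spry4 and Dusp5 lay 0.39 apart, the nearest pair of members after Ier3 and Phlda1, with the same limit.

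**Figure D2:**
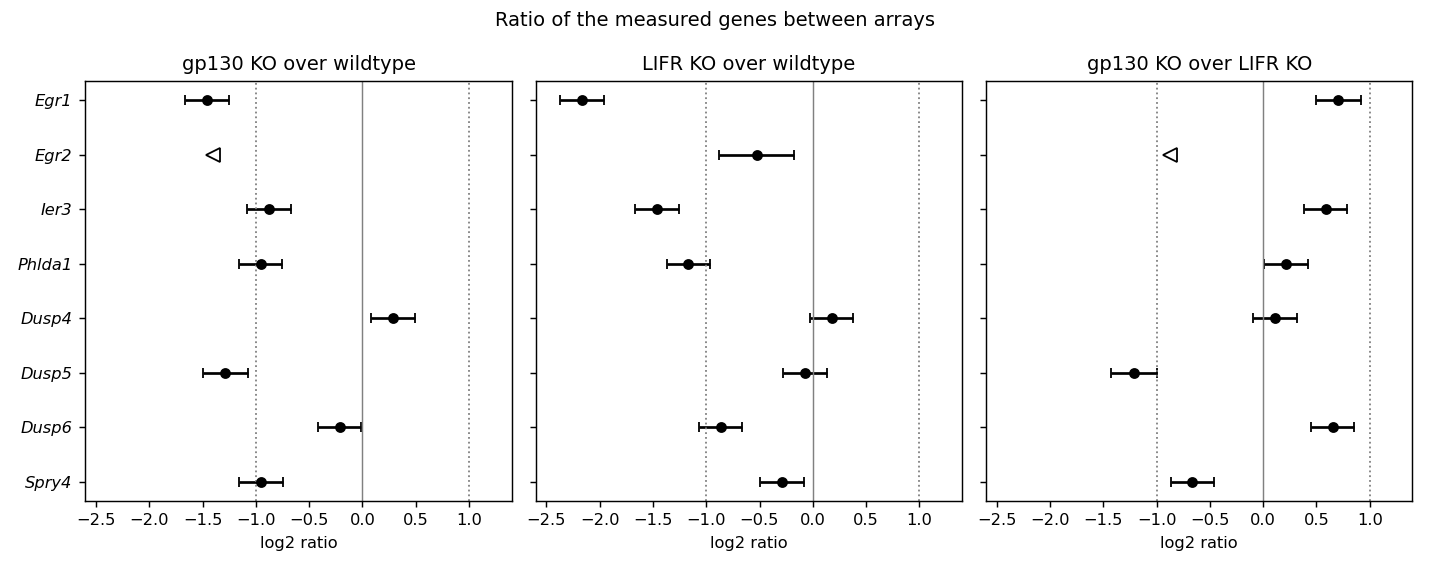
Log2 ratio between arrays, each scaled by its 75th percentile, of the 8 genes measured on at least 1 array, for gp130 KO over wildtype, LIFR KO over wildtype and gp130 KO over LIFR KO. Bars are the propagated scanner error, open triangles are bounds where the gp130 KO signal of Egr2 was not well above background, and dotted lines mark 2-fold. Egr1 lies past 2-fold lower in both knockouts, Dusp5 only in the comparisons with gp130 KO and Ier3 and Phlda1 only in LIFR KO over wildtype.

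Counted together, 3 of the 8 measured genes were at least 2-fold lower on the gp130 KO array than on wildtype, namely Egr1, Egr2 as a bound and Dusp5, and 0 were higher. Egr2 entered only through the other array and could only come out lower. Among the 7 genes well above background on both arrays 2 were at least 2-fold lower, beside 0.476% of all 14082 such genes. Of all 14903 genes compared, 0.792% were at least 2-fold lower and 0.973% higher. On the LIFR KO array 3 of the 8 were at least 2-fold lower than wildtype, namely Egr1, Ier3 and Phlda1, and 0 were higher. The shares over all 14551 genes compared were 1.58% lower and 2.63% higher. Between the knockouts 1 of the 8, Dusp5, was at least 2-fold lower on the gp130 KO array and 0 were higher, where 2.07% and 1.28% of 14765 genes were so.

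At 1.5-fold, a threshold added after the values were seen, 6 of the 8 measured genes were lower on the gp130 KO array than on wildtype, beside 3.12% of all genes, and 0 were higher, beside 3.48%. On the LIFR KO array 4 of the 8 were lower, beside 7.40%, and 0 higher, beside 6.49%. Between the knockouts 3 were lower and 3 higher on the gp130 KO array, beside 4.69% and 5.37% of all genes. The lower ones were Egr2, Dusp5 and Spry4, and the higher ones Egr1, Ier3 and Dusp6. Egr2, as a bound, could only come out lower in both comparisons with the gp130 KO array, and it is in these counts and in the medians that follow. The median log2 ratio of the 8 was -0.95 for gp130 KO over wildtype, where all genes had 0.03, and -0.70 for LIFR KO over wildtype, where all genes had -0.03. It was 0.16 for gp130 KO over LIFR KO, where all genes had 0.05. Over the 7 genes well above background on both arrays, the median was -0.95 for gp130 KO over wildtype and 0.21 for gp130 KO over LIFR KO. Egr3 and Spry2 are in none of these counts and medians. The 2 comparisons with wildtype share the wildtype array, so a single unusual value on that array would appear in both.

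**Figure D3:**
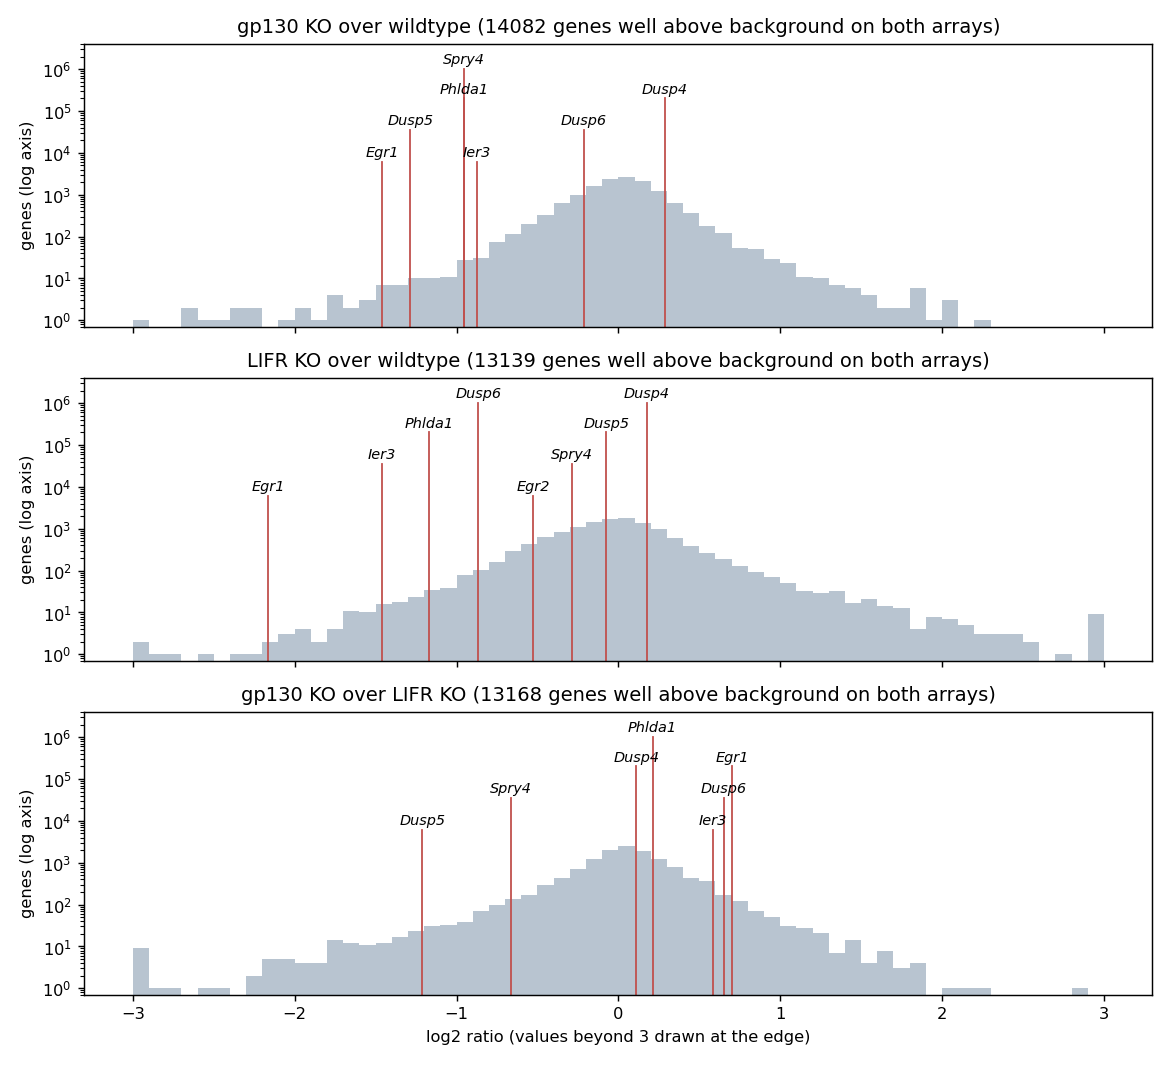
Number of genes, on a log axis, in bins of 0.1 of the log2 ratio for gp130 KO over wildtype, LIFR KO over wildtype and gp130 KO over LIFR KO, over genes well above background on both arrays. Red lines mark the measured EGR and ERK feedback genes, with bounds left out. Egr1 at -1.46 and -2.16 lies in the far lower tail of both comparisons with wildtype, while Dusp4 lies in the body of all 3 distributions.

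A list of further genes of the pathway was read in the same way. Of 55 further genes, 53 could be compared for gp130 KO over wildtype, with 3 at least 2-fold lower and 0 higher, and 52 for LIFR KO over wildtype, with 1 lower and 2 higher. Over all genes 0.792% were lower and 0.973% higher for gp130 KO over wildtype, and 1.58% lower and 2.63% higher for LIFR KO over wildtype. The LIFR KO counts are near these shares. For gp130 KO over LIFR KO, 5 of 53 were at least 2-fold lower and 0 higher, beside 2.07% and 1.28% of all genes. The counts by role below are parts of these, and with so few of all genes past 2-fold, a count of 0 in a role says nothing particular about it. The median log2 ratio of the 55-gene list was -0.08 for gp130 KO over wildtype, -0.02 for LIFR KO over wildtype and -0.01 for gp130 KO over LIFR KO.

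The components of the cascade itself were read next. All 18 genes of the RAS-RAF-MEK-ERK core were measured and 0 passed 2-fold in any comparison. Their log2 ratios ranged from -0.49 to 0.47 for gp130 KO over wildtype and from -0.59 to 0.59 for LIFR KO over wildtype. The 6 ETS factor genes downstream of ERK also had 0 past 2-fold, with log2 ratios from -0.24 to 0.34 for gp130 KO over wildtype and from -0.39 to 0.32 for LIFR KO over wildtype. Elk1, the factor that ERK phosphorylates at serum response elements, was the brightest of them with 154912, 170252 and 150600 on the gp130 KO, LIFR KO and wildtype arrays.

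Among the 9 other immediate-early genes, 2 were at least 2-fold lower on the gp130 KO array than on wildtype, and 1 was lower and 1 higher on the LIFR KO array. Fosl1, the gene of the AP-1 subunit FRA1, gave 1315 on the gp130 KO array, 1146 on the LIFR KO array and 3023 on the wildtype array. Its log2 ratios over wildtype were -1.18 and -1.57 on the gp130 KO and LIFR KO arrays, so that like Egr1 it was past 2-fold on both. Ccn1, the gene of a secreted matrix protein and the brightest of this group, gave 2459, 5197 and 6225, a log2 ratio of -1.31 for gp130 KO over wildtype and of -0.43 for LIFR KO over wildtype.

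Fos, the AP-1 partner that is usually induced together with Egr1, did not follow Egr1 on the LIFR KO array. It was read from 10 spots of 1 probe on each array, which gave 25.0 ± 2.45 on the gp130 KO array, 214 ± 9.25 on the LIFR KO array and 44.3 ± 2.40 on the wildtype array (SD over 10 spots of 1 array). The spots of the 3 arrays did not overlap, with ranges of 21.1 to 30.2, 195 to 227 and 40.6 to 47.3. Fos had a log2 ratio of 2.10 for LIFR KO over wildtype, of -0.80 for gp130 KO over wildtype and of -2.90 for gp130 KO over LIFR KO. With normexp without the stray signal these were 1.20, -0.24 and -1.44, so the sizes changed with this correction and its offset. Nr4a1, an orphan nuclear receptor gene, gave 605, 1537 and 1071 on the gp130 KO, LIFR KO and wildtype arrays and was 2.22-fold lower on the gp130 KO than on the LIFR KO array. Btg2, an antiproliferative gene, gave 44.3, 111 and 56.1 and was 2.18-fold lower in the same comparison. Each call was kept in 9 of 10 alternative settings. It ended for Nr4a1 with normexp on all spots, at a log2 ratio of -0.84, and for Btg2 with normexp without the stray signal, at -0.54.

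Of the 8 other phosphatase genes, 1 was at least 2-fold lower on the gp130 KO array than on wildtype, and 1 higher on the LIFR KO array. Dusp8, whose product prefers stress kinases, gave 181 on the gp130 KO array, 424 on the LIFR KO array and 467 on the wildtype array, a log2 ratio of -1.34 for gp130 KO over wildtype. Dusp2, a nuclear phosphatase gene known from activated immune cells, gave 155, 591 and 249 on the gp130 KO, LIFR KO and wildtype arrays. Its log2 ratio was 1.07 for LIFR KO over wildtype, -0.66 for gp130 KO over wildtype and -1.74 for gp130 KO over LIFR KO. The value for LIFR KO over wildtype was 0.93 and 0.86 with normexp on all spots and without the stray signal, inside 2-fold. For Dusp8, gp130 KO over LIFR KO was -1.03, and -0.80 with normexp without the stray signal. With the mean of its probes in place of the brightest it was -0.79. This call was kept in 8 of 10 alternative settings. Dusp7, a relative of Dusp6 and the brightest of this group, gave 2757, 3678 and 2694.

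Of the 8 other feedback inhibitors, 7 were measured for gp130 KO over wildtype and 6 for LIFR KO over wildtype, with 0 past 2-fold in any comparison. Spry1, the closest measured relative of Spry4, gave 3029 on the gp130 KO array, 1913 on the LIFR KO array and 2449 on the wildtype array. The log2 ratios over wildtype were 0.33 for gp130 KO and -0.53 for LIFR KO, so that its order over the arrays was not that of Spry4. Errfi1, an inhibitor of the EGF receptor and the brightest of this group, gave 11906, 15261 and 16880. The 3 relatives of Phlda1 and of the IER genes had 0 past 2-fold, with Ier5l the brightest at 4110, 4399 and 4006.

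**Figure D4:**
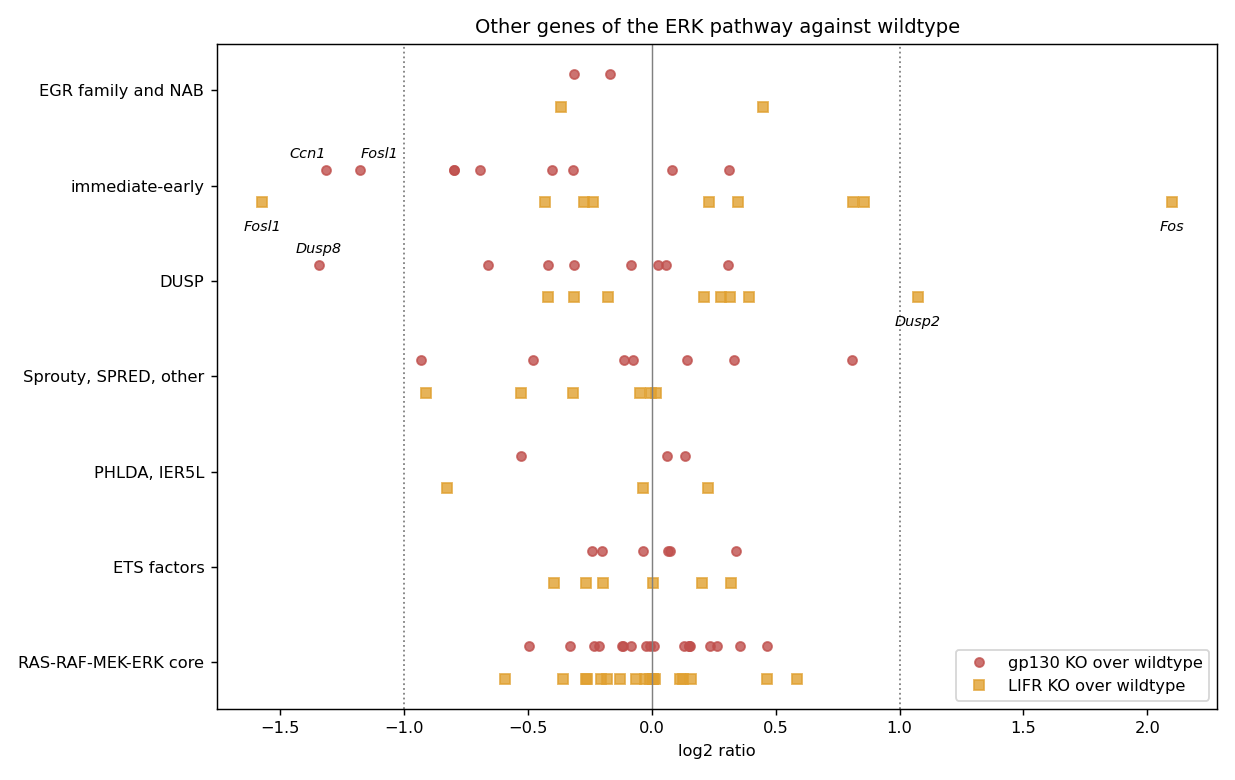
Log2 ratio over wildtype of the measured genes among the 55 further ERK pathway genes, by role, for the gp130 KO array (red circles) and the LIFR KO array (yellow squares), 1 point per gene. Dotted lines mark 2-fold and the genes beyond them are named. The core of the cascade lies between -0.59 and 0.59, while Fosl1 lies past 2-fold lower in both and Fos at 2.10 in LIFR KO over wildtype.

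The genes with the pattern most like Egr1 were sought among the 13121 named genes that were well above background on all 3 arrays. Likeness was the distance between pairs of log2 ratios over wildtype, over 3 arrays. The 5 nearest outside the 10 genes were the chemokine gene Ccl7 at a distance of 0.19, the secreted protease gene Adamts1 at 0.28, the cyclooxygenase 2 gene Ptgs2 at 0.40, the C/EBP gene Cebpd at 0.43 and the chemokine gene Ccl2 at 0.49. Ptgs2 gave 4788 on the gp130 KO array, 3188 on the LIFR KO array and 10751 on the wildtype array, the same order of arrays as Egr1. The 5 nearest to Dusp6 were Cd14, Spin4, Nepro, Nfatc4 and Dus4l, at distances of 0.011 to 0.031. Dusp6 lies where many genes have like ratios, and Egr1 where few do. With 3 arrays such likeness is a description only.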

How the data were processed

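The members and gene lists were chosen with earlier results of these data known, so no count over them is independent evidence. The array design was 026655, with probes placed on mm9, per the file headers. They name Feature Extraction 11.0.1.1 and protocol GE1_1100_Jul11. Version 9.1 is given by the submitters' processing notes. All 3 headers gave 1 scan time. The deposited intensity is, per the file headers, the scanner software's background-subtracted, detrended signal, not normalised between arrays. The deposited flags, another kind of value of 0 or 1, mark spots well above background, saturated or outlying. The authors' log2 values of the series matrix, whose method is not given in the sources used here, had a median of 5.38 in each column and correlated with log2 signal at r = 0.995 to 0.999.

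Outlier spots (138, 222 and 97 on the gp130 KO, LIFR KO and wildtype arrays) were left out, spots of a probe averaged, and log2 signal taken minus the array's 75th percentile (signals of 654, 749.6 and 666). A probe was well above background when most of its spots were flagged so, which held for 65.5%, 58.3% and 64.3% of probes. Accessions matched the GRCm38.p6 gene table for 69.1% of probes, and a gene was read from its brightest probe. A gene was compared when either array of the pair passed this filter, and with 1 dim array the ratio is a bound against that array's lowest signal well above background. Named are all members, pathway genes past 2-fold (up to 4 per role), the brightest of each role (that of the cascade core is not reported here) and the 5 genes nearest to Egr1 and to Dusp6. Nab2, Spry1 and Egr4 were named after their values were seen. The ratios were tested on simulated data. The files held no mean spot signal, so normexp (limma 3.58.1, offset 50) used the median. Python 3.11.15 was used otherwise.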

Additional observations from a re-analysis of the deposited data

Results flagged for a closer look

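Of the 10 genes, none of the 8 measured lay on opposite sides of wildtype in the 2 knockouts with the scaling by the 75th percentile, though the LIFR KO value of Dusp5 has no settled side and that of Egr2 turned with normexp on all spots. Among the further pathway genes, 6 did by more than the scanner error in both, each with 1 array for each genotype, and the difference was not tested. The share of all genes that did so is not given here, so the 6 cannot be judged against it. Dusp14 passed narrowly, with a log2 ratio of 0.21 for LIFR KO over wildtype and a scanner error of 0.20. For Btg2, gp130 KO over wildtype was -0.32, and -0.11 with normexp on all spots. On the gp130 KO array lower and on the LIFR KO array higher than wildtype were Fos, Dusp2, Nr4a1, Btg2 and Dusp14, with log2 ratios of gp130 KO over LIFR KO of -2.90, -1.74, -1.15, -1.13 and -0.63. Spry1 lay the other way, with 0.86.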

How the results depend on the processing

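There were 10 alternative settings, 9 planned, beside a 1.5-fold threshold. Quantile normalization and the authors' series matrix gave nearly the same ratios for the measured genes, with Egr1 at -2.10 for LIFR KO over wildtype in each. These 2 are therefore hardly separate settings. Leaving out the stray signal and the threshold were chosen after seeing the data. Over all 10, Egr1, Ier3, Phlda1, Dusp6 and Spry4 stayed below wildtype in both knockouts. Each has 1 probe, well above background on all 3 arrays. Settings that changed only the filter, the floor or the reading of several probes could therefore not alter their ratios. For LIFR KO over wildtype Spry4 was -0.12 with median scaling, inside its scanner error of 0.20. Dusp6 for gp130 KO over wildtype ran from -0.26 to -0.18, near the same error. Of all genes, 53.8% lay below 0 for LIFR KO over wildtype and 45.4% for gp130 KO over wildtype. Of genes at least 2-fold lower on the gp130 KO array than on wildtype there were 3, but 1 with normexp on all spots, 1 with normexp without the stray signal, and 6 at 1.5-fold. The median of the 8 measured genes, -0.95, was -0.75 with each normexp fit. For LIFR KO over wildtype, 1 gene (Egr2) was higher with normexp on all spots, and that median, -0.70, was -0.42 with it, -0.54 with normexp without the stray signal, -0.52 with median scaling and -0.41 with no filter, where Egr3 and Spry2 enter. For gp130 KO over LIFR KO, 1 gene was lower, but 2 with normexp on all spots, quantile normalization, median scaling, the authors' series matrix or no filter, 0 with normexp without the stray signal and 3 at 1.5-fold. Higher were 1 gene with normexp on all spots and 3 at 1.5-fold. The median of 0.16 was -0.27 with normexp on all spots, 0.012 with median scaling and -0.013 with no filter. Of the further pathway genes, for LIFR KO over wildtype 2 were lower and 6 higher with normexp on all spots and 1 higher with normexp without the stray signal. For gp130 KO over LIFR KO 8 were lower and 1 higher with normexp on all spots, and 3 were lower with normexp without the stray signal. These pathway alternatives were added after seeing the data. The cause was not tested.

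Over all genes, 382 were higher and 230 lower for LIFR KO over wildtype, against 545 and 143 with median scaling, where the median of all genes was 0.12 in place of -0.03, 447 and 176 with quantile normalization or the series matrix, 652 and 1006 with no filter, 3305 and 94 with normexp on all spots and 113 and 65 with normexp without the stray signal. For gp130 KO over wildtype 145 and 118 became 77 and 67 when both arrays had to be well above background, 653 and 598 with no filter, 10 and 33 with normexp on all spots and 9 and 33 with normexp without the stray signal. For gp130 KO over LIFR KO 189 and 305 became 126 and 391 with median scaling, 144 and 353 with quantile normalization, 148 and 353 with the series matrix, 123 and 186 with both arrays well above background, 959 and 569 with no filter, 47 and 3273 with normexp on all spots and 36 and 77 with normexp without the stray signal. Signal near background limits Egr2, Egr3 and Spry2. No paired analysis was possible because each genotype has 1 array.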
